A study of Homo sapiens with 18 samples.

Results

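Tsg101 depletion was compared with nontargeting siRNA in RKO cells, an established human colorectal carcinoma line. The comparison took every library labelled siTsg101#1 or siTsg101#2 (6) against every library labelled siCtrl#1 or siCtrl#2 (6), which makes 12 of the 18 libraries of the series. The remaining 6 libraries, from cells depleted of Vps28, were left out. All cells were transfected with siRNA at 30 nM and collected 72 h later, so that the control cells had also been through transfection. The siRNAs siTsg101#1 and siTsg101#2 are different molecules against the same mRNA, and siCtrl#1 and siCtrl#2 are different nontargeting molecules. Each siRNA has 3 libraries, numbered by batch, and every batch holds 1 library of each siRNA. The cells are 1 cell line, and the labels name no separate cultures beyond the batch, so that a p-value here measures the spread between these libraries.

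Tsg101 is the core subunit of ESCRT-I, 1 of the endosomal sorting complexes that collect ubiquitinated membrane proteins and pass them into the internal vesicles of late endosomes, from which they reach the lysosome for degradation. It pairs with Vps28, with a VPS37 subunit and with MVB12A, MVB12B or UBAP1. Cells that lack it keep receptors and other membrane cargo on endosomes, and the same machinery serves autophagosome closure, virus budding and the last cut of cell division.

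The libraries count reads from a panel that amplifies a short stretch of each transcript, so that the reads of a gene do not scale with its length and levels are compared only within a gene. Between 2561790 and 7466916 reads per library fell on genes, with a median of 4481749.5 in the siCtrl libraries and 6236086 in the siTsg101 libraries. Of 20802 targets, 10632 had more than 100 reads summed over all 18 libraries, of which 419 were set aside as noncoding, leaving 10213 for the test. Levels are given in CPM, the reads of a gene scaled to a common library size after TMM normalization, and differences as log2 fold changes from edgeR with the batch as a block. Calls of higher or lower needed both a 1.5-fold change or more and, after adjustment, a p-value under 0.05. A multidimensional scaling of the 12 libraries took its distances from the genes that differed most between each pair of libraries. Its first dimension held 41.0% of the variation in these distances. It placed the siCtrl libraries from -0.90 to -0.66 and the siTsg101 libraries from 0.61 to 1.01. Among markers of colorectal epithelium, EPCAM, KRT8, KRT18 and CDX2 passed the filter, with log2 fold changes of 0.35, -0.75, -0.36 and -0.36, of which that of KRT8 was called, while CDH1, CDH17, GPA33 and CEACAM5 had no read in any of the 12 libraries. In CPM without TMM normalization, the epithelial markers summed to 125.5 to 150.9 in the siCtrl libraries and to 97.0 to 119.6 in the siTsg101 libraries. The part of this in other results was not tested. Markers of other cell types were at or near 0. Their summed level, also without TMM normalization, was at most 0.536 CPM for leukocytes, 1.47 for fibroblasts and 0.528 for endothelium.

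TSG101 itself (chr11:18489883-18548498 on the minus strand of GRCh37) was examined first as the check of the labels. Its lowest, median and highest levels were 74.9, 106 and 158 CPM in the siCtrl libraries and 2.51, 3.51 and 5.02 CPM in the siTsg101 libraries. The groups were far apart, with every depleted library below every control. The level was 29.5-fold lower, a log2 fold change of -4.88 (SE 0.23, adjusted p = 2.6e-11, edgeR), and it was -4.75 with siTsg101#1 and -5.01 with siTsg101#2. In bulk libraries such as these, less RNA per cell and fewer cells that hold the RNA cannot be told apart.

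Of the other 8 ESCRT-I subunits, 1 was called higher, 1 lower and 6 were not called, beside 10.7% of all tested genes called higher and 6.42% lower. VPS37A, which holds the complex together with TSG101 and VPS28, was measured at 6.13 to 11.8 CPM in the siCtrl libraries and 18 to 27.9 CPM in the siTsg101 libraries, with no overlap. Its log2 fold change was 1.53 (SE 0.16, adjusted p = 5.7e-07, edgeR). Reads of MTMR7 from the opposite strand could add to VPS37A, as 27.4% of its exon bases overlap that gene. MVB12A, an accessory subunit, lay at 23.2 to 32.5 CPM without depletion and at 11.6 to 16 CPM with it (log2 fold change -0.99, SE 0.14, adjusted p = 1.4e-05, edgeR). VPS28, the direct partner of TSG101, was at 65.5 to 112 CPM in the controls and 83.2 to 104 CPM after depletion (log2 fold change 0.10, SE 0.11, adjusted p = 0.50, edgeR). VPS37D had a log2 fold change of -0.52 (adjusted p = 0.031, edgeR), which did not reach 1.5-fold, and the values of VPS37B, VPS37C, MVB12B and UBAP1 lay between 0.06 and 0.13.

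The complexes that act before and after ESCRT-I moved little. Of 22 tested genes for ESCRT-0, ESCRT-II, ESCRT-III and VPS4, 3 rose and none fell, with a median log2 fold change of 0.11. The 3 were HGS (0.82, SE 0.11) and STAM (0.78, SE 0.15), the pair that forms ESCRT-0 and binds ubiquitinated cargo first, and CHMP1A (0.65, SE 0.12) of ESCRT-III. Each had its 6 siTsg101 libraries above its 6 siCtrl libraries, as 6.93% of all tested genes did, while 3.93% had them all below. CHMP1A was 0.56 and short of the fold threshold without siCtrl#2 replicate 2, and 25.9% of the exon bases of HGS overlap genes on the other strand.

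**Figure D1:**
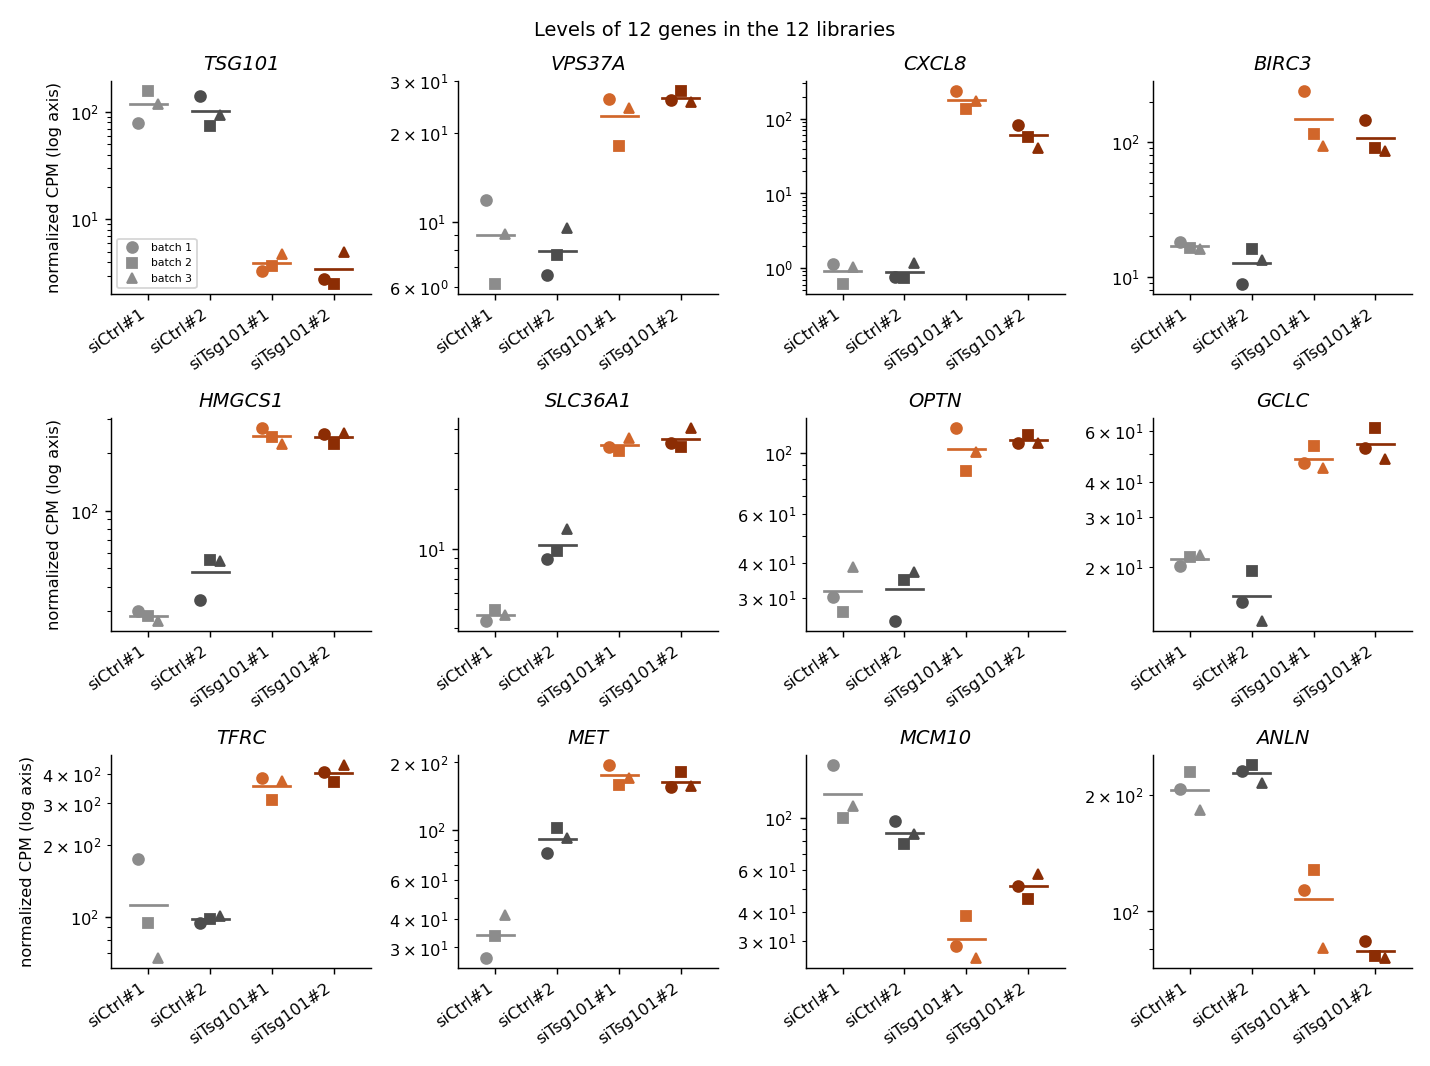
Levels of 12 genes in each of the 12 libraries, in normalized CPM on a log axis, with 1 panel per gene and the 4 siRNAs along the horizontal axis. Marker shapes show the batch and bars the mean of the 3 libraries of a siRNA. In all 12 panels the siTsg101 libraries lie wholly above or wholly below the siCtrl libraries, for example TSG101 at 2.51 to 5.02 CPM against 74.9 to 158 CPM. The 12 genes were picked for display, and only 6.93% of all tested genes lay wholly above and 3.93% wholly below.

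The response reached far beyond the complex. After Tsg101 depletion 1088 genes (10.7% of those tested) were called higher and 656 (6.42%) lower. All counts of called list members are to be read beside these shares. Among the tested genes the larger changes were mostly increases. Of the calls, 455 were 2-fold or more upward and 117 downward, and 96 were over 4-fold upward and 3 downward. The filter sums reads over all 18 libraries, more of them from depleted than from control cells. It therefore passes genes almost absent in the controls more easily than genes almost absent after depletion. With at least 10 counts required in each of the 12 libraries, 292 of the 1088 higher and 94 of the 656 lower calls went untested. With siTsg101#1 alone 1203 genes were called higher and 915 lower, and with siTsg101#2 1113 and 664. Both siRNAs gave the call for 715 of the 10213 genes upward and 273 (2.67%) downward, and 13 genes were called in opposite directions. These counts share their control libraries. Of the called genes, 1085 of those called higher and 653 of those called lower had the same sign in each of the 3 batches. The calls were made from these same batches, which favors the same sign, so this is no separate replication. The median log2 fold change of all tested genes was -0.01.

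Many of the 15 largest increases among genes called with both siRNAs started from almost no reads. PI3, a secreted protease inhibitor of epithelia, had 2 reads in the 6 siCtrl libraries together and 696 in the 6 siTsg101 libraries, a ratio of 298 (exact 95% counting interval 82.2 to 2465). Its reads were 90, 49 and 524 in the siTsg101#1 libraries of batches 1, 2 and 3 and 17, 6 and 10 in those of siTsg101#2, and both control reads lay in siCtrl#1 replicate 3. Without siTsg101#1 replicate 3, an alternative chosen after seeing the data, the PI3 ratio was 95.3, from 172 reads. The fitted log2 fold change of PI3 was 9.36 with siTsg101#1 and 4.93 with siTsg101#2. The control reads of CCL20 and HKDC1 also lay in siCtrl#1 replicate 3 alone and those of TNFRSF9 in siCtrl#2 replicate 2 alone, so that no ratio can be given without these libraries. TNFRSF9, a TNF receptor family member known from T cells, had 2 and 360 reads (ratio 154, interval 42.4 to 1277). TNFAIP6, a secreted hyaluronan-binding protein, had no read in the controls and 68 reads after depletion, which is at least 19.4-fold higher against a floor of 3 reads over the control group. The counting intervals cover counting error only, since amplified reads without molecular identifiers are not independent molecules.

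The same pattern held for HKDC1, a hexokinase family member (2 against 117 reads, ratio 50.1, interval 13.6 to 418), for CCL20, a chemokine of mucosal epithelium (1 against 78, ratio 66.8, interval 11.6 to 2671), and for GCNT3, a mucin glycosyltransferase (2 against 87, ratio 37.2, interval 10.0 to 312). MMP10, a matrix metalloproteinase, had 6 against 194 reads (ratio 27.7, interval 12.5 to 76.4) and LIPG, endothelial lipase, 10 against 151 (ratio 12.9, interval 6.84 to 27.5). CEBPB, a leucine-zipper transcription factor of the inflammatory response, was better measured, at 0 to 3.94 CPM in the controls and 33.1 to 66.4 CPM after depletion (log2 fold change 4.74, SE 0.26, adjusted p = 8.5e-11, edgeR). FAM120AOS (5.69, SE 0.51), the growth factor CSF2 (4.75, SE 0.62) and EBI3, a cytokine subunit (3.84, SE 0.41), completed the 15 largest increases with CXCL8, CXCL1 and CXCL3. Fitted fold changes of genes with so few control reads depend on the prior count of the fit. All 15 were higher in every siTsg101 library than in any siCtrl library, which the rule for naming them required.

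Cytokines and chemokines are described together with the other genes of the NFκB response. NFκB is a family of transcription factors held in the cytoplasm by IκB proteins until a receptor signal frees it, after which it binds short palindromic sites and drives chemokines and its own inhibitors. The sites were looked for as GGAANTTCC, on both strands, in RefSeq promoter windows that run from 250 bases before to 50 bases after each annotated transcript start. Windows were at hand for 8432 of the tested genes, and 1.47% of these held the motif in at least 1 window. Of the 48 list members with a window 12 held it, and these were TNFRSF9, CXCL8, CXCL1, CXCL3, CXCL2, ICAM1, NFKBIA, NFKBIZ, NFKB1, NFKBIB, CD83 and REL. All 12 were called higher, but so were 31 of the 48 list members with a window. Over all tested genes with a window, the motif stood in 2.72% of those called higher and 0.755% of those called lower. A match is a description of the sequence, and binding was not measured. The stretches below come from GRCh38.p14, are written 5′ to 3′ on the strand of the gene and end before the transcript start, with the matched bases in capitals. They are shown because these genes had the largest changes among those with a match.
CXCL8 (chr4:73740448-73740516, plus): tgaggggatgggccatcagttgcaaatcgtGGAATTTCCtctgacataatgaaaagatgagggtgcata
CXCL1 (chr4:73869285-73869353, plus): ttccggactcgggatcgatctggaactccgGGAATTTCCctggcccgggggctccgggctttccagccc
CXCL3 (chr4:74038729-74038797, minus): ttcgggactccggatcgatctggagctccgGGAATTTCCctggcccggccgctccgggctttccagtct
CXCL2 (chr4:74099234-74099302, minus): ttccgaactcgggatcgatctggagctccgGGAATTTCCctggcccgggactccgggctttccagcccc
TNFRSF9 (chr1:7940874-7940942, minus): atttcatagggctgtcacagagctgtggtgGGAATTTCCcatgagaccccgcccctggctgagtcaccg
ICAM1 (chr19:10270904-10270972, plus): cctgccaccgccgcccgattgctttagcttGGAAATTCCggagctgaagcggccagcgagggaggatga
NFKBIA (chr14:35404792-35404860, minus): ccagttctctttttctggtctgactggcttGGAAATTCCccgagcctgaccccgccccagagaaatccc

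The match began 91 bases before the transcript start in CXCL8, 78 in CXCL1 and CXCL3, 77 in CXCL2, 73 in TNFRSF9, 81 in NFKBIA and 186 in ICAM1. CXCL1, CXCL2 and CXCL3 are close relatives, with near-identical bases around the motif and shared stretches in their transcripts, so that reads could be divided between them.

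Of 27 listed cytokines and chemokines 12 passed the filter on low counts, and 10 of these 12 were called higher and none lower. Members that passed only through the depleted libraries had to differ, so the count describes measured members and not the list. CXCL8, the main neutrophil chemokine, was at 0.613, 0.893 and 1.16 CPM (lowest, median and highest) in the siCtrl libraries and at 41.2, 108 and 239 CPM in the siTsg101 libraries. It was 107-fold higher (log2 fold change 6.75, SE 0.20, adjusted p = 1.1e-14, edgeR), with all 6 depleted libraries far above the controls. The related CXCL3 rose by a log2 fold change of 3.76 (SE 0.34) and CXCL2 by 3.07 (SE 0.28), and CXCL1 had 94 against 4 reads (ratio 20.1, interval 7.60 to 75.4). CSF1, the macrophage growth factor, went from 7.07 to 18.7 CPM to 27.3 to 44 CPM (1.58, SE 0.18). IL32, a proinflammatory cytokine made by epithelial cells, was already at a mean of 501 CPM and rose to 959 CPM (0.93, SE 0.11). LIF, of the interleukin 6 family, lay at 225 and 240 CPM (0.10, SE 0.13). The median of the 12 was 2.33, and 1.43 when only the 12 libraries compared had to hold more than 100 reads.

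NFκB subunits and regulators gave 15 higher and 1 lower among 23 tested, with a median log2 fold change of 0.95. The inhibitors of the pathway were among the largest. NFKBIA, the IκB that holds NFκB in the cytoplasm, was at 27.3, 42.7 and 66.8 CPM in the controls and 194, 288 and 581 CPM after depletion (2.91, SE 0.20, adjusted p = 1.7e-09, edgeR). TNFAIP3, a ubiquitin-editing enzyme that shuts off TNF signaling, rose from a median of 2.01 to 13.9 CPM (2.86, SE 0.22). BIRC3, a ubiquitin ligase of TNF receptor complexes, rose from a median of 16 to 104 CPM (3.03, SE 0.19), and MAP3K14, the kinase of the noncanonical arm, from 7.65 to 29.7 CPM (2.17, SE 0.18). Their groups did not overlap. Of the DNA-binding subunits NFKB2 (1.60), RELB (1.43), NFKB1 (0.99) and REL (0.64) were called higher, while RELA had a log2 fold change of 0.48 and stayed under the fold threshold. TRAF2, an adaptor of TNF receptors, was lower (-0.68, SE 0.16), but was -0.54 and not called without siTsg101#1 replicate 1.

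Among 20 tested effector genes of the pathway, 10 rose and none fell (median 0.70). ICAM1, an adhesion molecule for leukocytes, was at 13.4 to 27.0 CPM in the controls and 97.7 to 297 CPM after depletion (2.99, SE 0.16, adjusted p = 8.5e-11, edgeR). Genes on the other strand overlap 25.4% of the exon bases of ICAM1. SOD2, the mitochondrial superoxide dismutase, went from a median of 142 to 633 CPM (2.4, SE 0.17). CD82, a tetraspanin, rose from 10.5 to 37.8 CPM (2.23, SE 0.19). The list of AP-1 and immediate early genes moved in both directions, with 5 higher and 4 lower among 21 and a median of 0.05. The 5 were called higher with each siRNA, and none of the 4 was called lower with each. NR4A1 (1.21, SE 0.17), FOSL2 (1.06, SE 0.14), DUSP1 (0.99, SE 0.14) and JUNB (0.90, SE 0.12) rose, and FOSB (-0.74, SE 0.13) and MAFF (-1.28, SE 0.30) fell. FOS, JUN and EGR1 had log2 fold changes of 0.50, 0.05 and 0.01 and were not called.

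**Figure D2:**
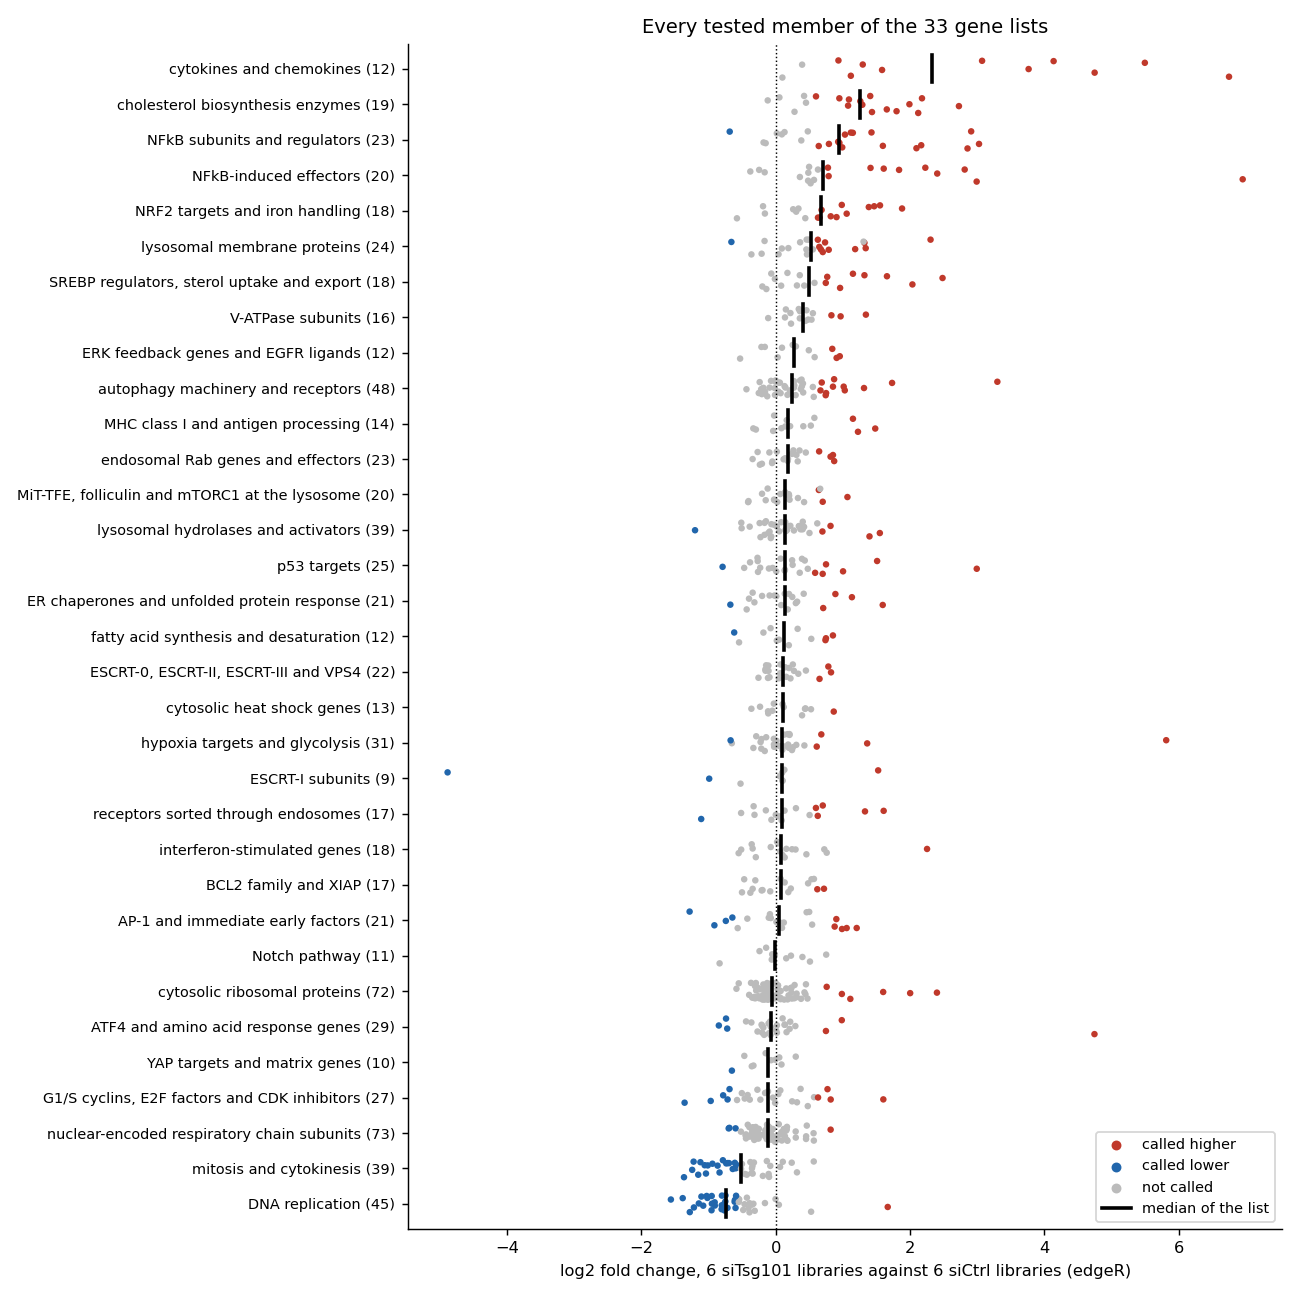
Log2 fold change of every tested member of the 33 gene lists, 6 siTsg101 against 6 siCtrl libraries, with 1 point per gene, its color giving the call and the black bar the median of the list. The number of tested members stands after each name, and vertical scatter within a row has no meaning. Cytokines and chemokines (median 2.33) and cholesterol biosynthesis enzymes (1.26) have the highest medians, though with at least 10 counts required in each library the cytokine median is 1.04 and the cholesterol median 1.27, and DNA replication (-0.74) and mitosis (-0.51) the lowest.

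Enzymes of cholesterol biosynthesis rose nearly as a pathway. Cells make cholesterol from acetyl-CoA through mevalonate, isoprenoids, squalene and lanosterol, and they raise the genes through the transcription factor SREBP2 when sterols in the endoplasmic reticulum run low. Of 19 tested enzymes 14 were called higher and none lower. In 14 of the 19 the siTsg101 libraries lay wholly above the siCtrl libraries, while FDPS was called with overlapping groups. The median log2 fold change was 1.26, with medians between 1.19 and 1.42 in the separate batches. HMGCS1, which makes HMG-CoA, was at 26.6, 32.1 and 55.5 CPM in the controls and 224, 247 and 270 CPM after depletion, a 6.62-fold difference (2.73, SE 0.13, adjusted p = 2.6e-11, edgeR). The levels in the siTsg101 libraries lay within a narrow range and the controls stood far below them. An unnamed gene on the other strand overlaps 37.7% of the exon bases of HMGCS1.

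In the isoprenoid steps IDI1 rose by 1.80 (SE 0.11), MVK by 1.08, MVD by 1.09 and FDPS by 0.60, whereas PMVK was at -0.12. In the sterol steps after squalene, MSMO1 (2.18, SE 0.16), NSDHL (2.12, SE 0.12) and DHCR7 (1.99, SE 0.11) changed most. Among the enzymes not called were PMVK and, late in the pathway, TM7SF2 (0.42), EBP (0.45) and SC5D (0.06). The values of the 2 siRNAs stood side by side, at 2.74 and 2.72 for HMGCS1 and 2.08 and 1.90 for DHCR7. With siCtrl#2 as the only reference the list median was 1.13.

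**Figure D3:**
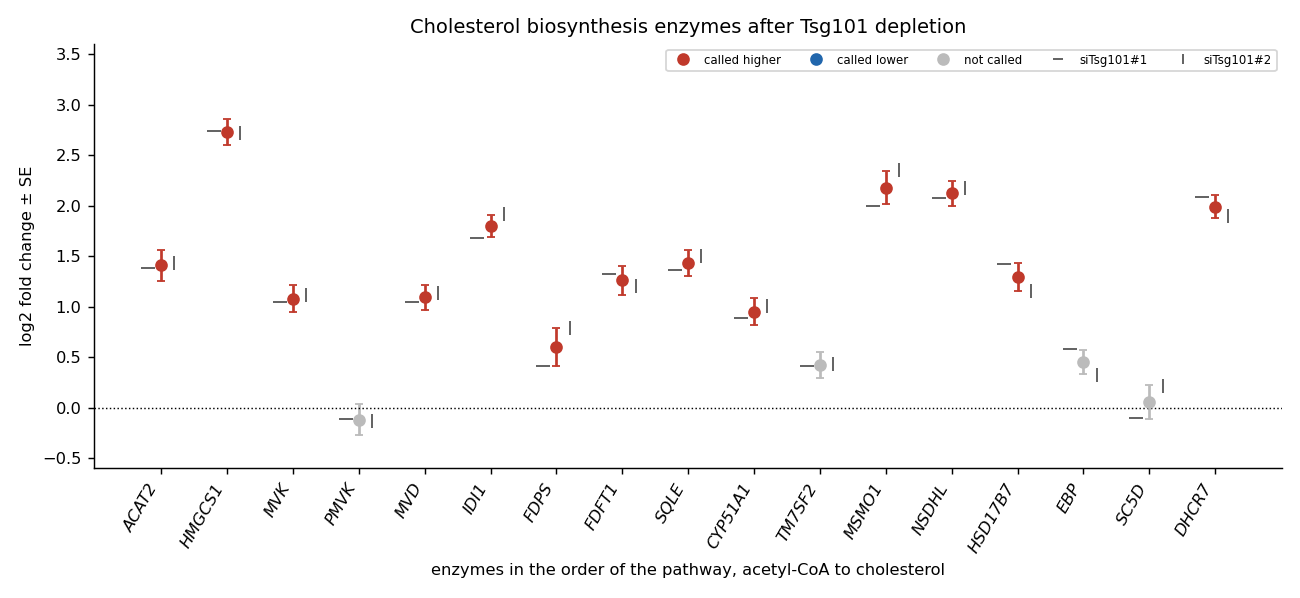
Log2 fold change (point) with its standard error (bar) for 17 of the 19 tested cholesterol biosynthesis enzymes in pathway order, with a horizontal mark for siTsg101#1 and a vertical mark for siTsg101#2, each against the mean of both siCtrl groups. HMGCS1 (2.73) is highest, and the 4 grey points between -0.12 and 0.45 are enzymes that were not called.

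Regulators of SREBP and carriers of sterols followed in part, with 8 of 18 higher, none lower and a median of 0.50. INSIG1, which holds SREBP in the endoplasmic reticulum, rose from 131 to 306 CPM (1.15, SE 0.14). STARD4, a sterol carrier, rose by 0.96 (SE 0.12). ABCA1, a cholesterol exporter known as a target of the sterol sensor LXR, was also higher (2.04, SE 0.30). NPC1, which moves cholesterol out of the lysosome, was at 52.9 to 85.3 CPM in the controls and 137 to 212 CPM after depletion (1.32, SE 0.11, adjusted p = 2.9e-08, edgeR). SREBF2, which encodes SREBP2, had a log2 fold change of 0.43 and SREBF1 of 0.75, and only SREBF1 passed the fold threshold. Of 12 tested genes of fatty acid synthesis, which the related SREBP1 controls, 3 rose and 1 fell (median 0.12), among them FASN, the fatty acid synthase (0.85, SE 0.12). The sterol response motif TCACNCCAC was found in the windows of 1.44% of tested genes and in none of the 16 called members of these lists that had a window. No match says only that these letters are absent from the windows.

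Lysosomal membrane proteins gave 10 higher and 1 lower among 24 tested (41.7% higher, median 0.52). The hydrolases and their activators gave 4 and 1 among 39 (10.3% higher, median 0.15), beside 10.7% higher among all tested genes. The difference between the lists was not tested. SLC36A1, which exports amino acids from the lysosome, was at 4.33, 6.87 and 12.6 CPM in the controls and 30.7, 33.1 and 40.3 CPM after depletion, 4.94-fold higher (2.31, SE 0.14, adjusted p = 3.4e-10, edgeR). The change was 2.90 against siCtrl#1 and 1.71 against siCtrl#2. OSTM1, a partner of the chloride transporter CLCN7, rose by 1.34 (SE 0.11), CTNS, the cystine exporter, by 1.18 (SE 0.13), and MCOLN1, the calcium channel, by 0.67 (SE 0.13). TPCN1, another ion channel, fell by 0.66 on the log2 scale (SE 0.13). Among hydrolases GLA, alpha-galactosidase, rose from a median of 24.9 to 62.9 CPM (1.40, SE 0.13), NEU1, a sialidase, from 170 to 329 CPM (0.82, SE 0.12), and HEXA, a hexosaminidase subunit, was lower (-1.20, SE 0.15). Of 16 tested subunits of the proton pump that acidifies the lysosome 3 (18.8%) were called higher (median 0.40). These were ATP6V0A2 (1.34, SE 0.20), ATP6V1H (0.97, SE 0.14) and ATP6V0A1 (0.83, SE 0.11).

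Transcription of lysosomal genes is controlled by TFEB and its relatives, which bind the element TCACGTGA near the start of transcription and are kept inactive by mTORC1 and folliculin. In the list of these regulators, 3 of 20 rose and none fell, with a median of 0.15. FNIP2, a folliculin partner, rose from 35.7 to 74.3 CPM (1.07, SE 0.12), LAMTOR3, of the Ragulator complex, by 0.70 (SE 0.15), and TFEB from 7.63 to 12.3 CPM (0.64, SE 0.15). The TFEB libraries overlapped, with 5.83 to 9.09 CPM in the controls and 8.47 to 15.1 CPM after depletion. The motif stood in the windows of 2.57% of tested genes, of 14 of 116 members of the lysosome and regulator lists with a window (12.1%), and of 3 of the 28 called members (10.7%), SLC36A1, CLN3 and MCOLN1. MCOLN1 had it at 42 and 15 bases before the transcript start and is shown as the gene with a pair of matches upstream of its start, in capitals.
MCOLN1 (chr19:7522552-7522623 of GRCh38.p14, plus): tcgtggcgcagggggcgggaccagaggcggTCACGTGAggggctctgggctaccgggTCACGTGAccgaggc

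Autophagy genes rose as a minority, with 11 higher (22.9%) and none lower among 48 and a median of 0.24. Of all tested genes 10.7% were called higher and 6.42% lower. WDR45, a phosphoinositide-binding protein of autophagosome formation, was at 0.857 to 2.05 CPM in the controls and 9.95 to 17.1 CPM after depletion (3.30, SE 0.24, adjusted p = 4.2e-09, edgeR). OPTN, a receptor that ties ubiquitinated cargo to the autophagosome, rose from a median of 32.6 to 108 CPM (1.73, SE 0.13), and UVRAG, a subunit of the lipid kinase complex, from 6.48 to 15.9 CPM (1.31, SE 0.15). PLEKHM1, which joins late endosomes and autophagosomes to lysosomes, rose by 1.03 (SE 0.12), but 28.9% of its transcript stretches are shared with other genes. SQSTM1, the receptor p62, was at 951 to 1532 CPM in the controls and 1698 to 2434 CPM after depletion (0.74, SE 0.12). RAB7A, the Rab of late endosomes, rose from a median of 276 to 476 CPM (0.85, SE 0.11). The core conjugation genes ATG5, ATG7 and ATG12 had log2 fold changes of -0.25, 0.39 and 0.37 and were not called.

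Antioxidant and iron genes formed a further group, with 11 of 18 higher and none lower (median 0.67). NRF2 drives glutathione synthesis and ferritin genes, and the transferrin receptor is raised when cells lack iron in the cytoplasm. GCLC, the catalytic subunit of the first enzyme of glutathione synthesis, was at 13, 19.8 and 22.1 CPM in the controls and 44.7, 50.2 and 61.7 CPM after depletion (1.47, SE 0.12, adjusted p = 2.0e-08, edgeR). Its partner GCLM rose from a median of 10.1 to 27.7 CPM (1.39, SE 0.16) and OSGIN1, another NRF2 target, from 8.42 to 24.7 CPM (1.55, SE 0.16). TFRC, the transferrin receptor, was at 66.8, 96.0 and 175 CPM in the controls and 311, 379 and 436 CPM after depletion (1.88, SE 0.16, adjusted p = 2.5e-08, edgeR). The ferritin chains FTL (0.65, SE 0.12) and FTH1 (0.68, SE 0.12) rose too, FTL at 2751 to 5945 CPM in the controls and 5077 to 10430 CPM after depletion with overlap. FTL was 0.53 and not called without siTsg101#2 replicate 2, and 33.5% of its transcript stretches recur in pseudogenes. HMOX1, heme oxygenase, had a log2 fold change of 0.44, with 0.01 for siTsg101#1 and 0.87 for siTsg101#2. The motif TGACNNNGC was common, in the windows of 19.7% of tested genes, and was present in 1 of the 8 called members with a window, GCLM.

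DNA replication was the group that fell most broadly. Of 45 tested genes 28 were called lower and 1 higher, with a median log2 fold change of -0.74 against -0.01 for all genes, and 22 were called lower with each siRNA. The siTsg101 libraries lay wholly below the siCtrl libraries in 7 of the 45 and wholly above in 1. Of all tested genes 3.93% lay wholly below. By step, 9 of 10 genes for origin licensing were called lower (median -0.80), 5 of 8 for helicase activation (-0.75), 4 of 7 for primase and polymerases (-0.59), 6 of 12 for the sliding clamp, its loaders, RPA and strand maturation (-0.58), and 4 of 8 for nucleotide synthesis and chromatin assembly (-0.73). MCM10, which helps to start the replicative helicase, was at 77.7, 98.3 and 168 CPM in the controls and 25.4, 41.6 and 57.6 CPM after depletion (-1.38, SE 0.14, adjusted p = 3.0e-07, edgeR), with no overlap. TYMS, thymidylate synthase, fell from a median of 244 to 114 CPM (-1.10, SE 0.10), though 47.9% of its exon bases overlap ENOSF1 and TYMSOS on the other strand. CDC45, a helicase cofactor, fell from 60.7 to 27.2 CPM (-1.08, SE 0.12).

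The subunits MCM3, MCM4, MCM5, MCM6 and MCM7 of the helicase lay between -1.03 and -0.76, and MCM2 was at -0.33 without a call. ORC1, of the origin recognition complex, had a log2 fold change of -1.56 (SE 0.20). RFC5, a subunit of the clamp loader, went the other way, from 2.52 to 8.89 CPM in the controls to 13.7 to 21.2 CPM after depletion (1.67, SE 0.18, adjusted p = 6.3e-07, edgeR), while its partner RFC4 fell (-0.76).

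**Figure D4:**
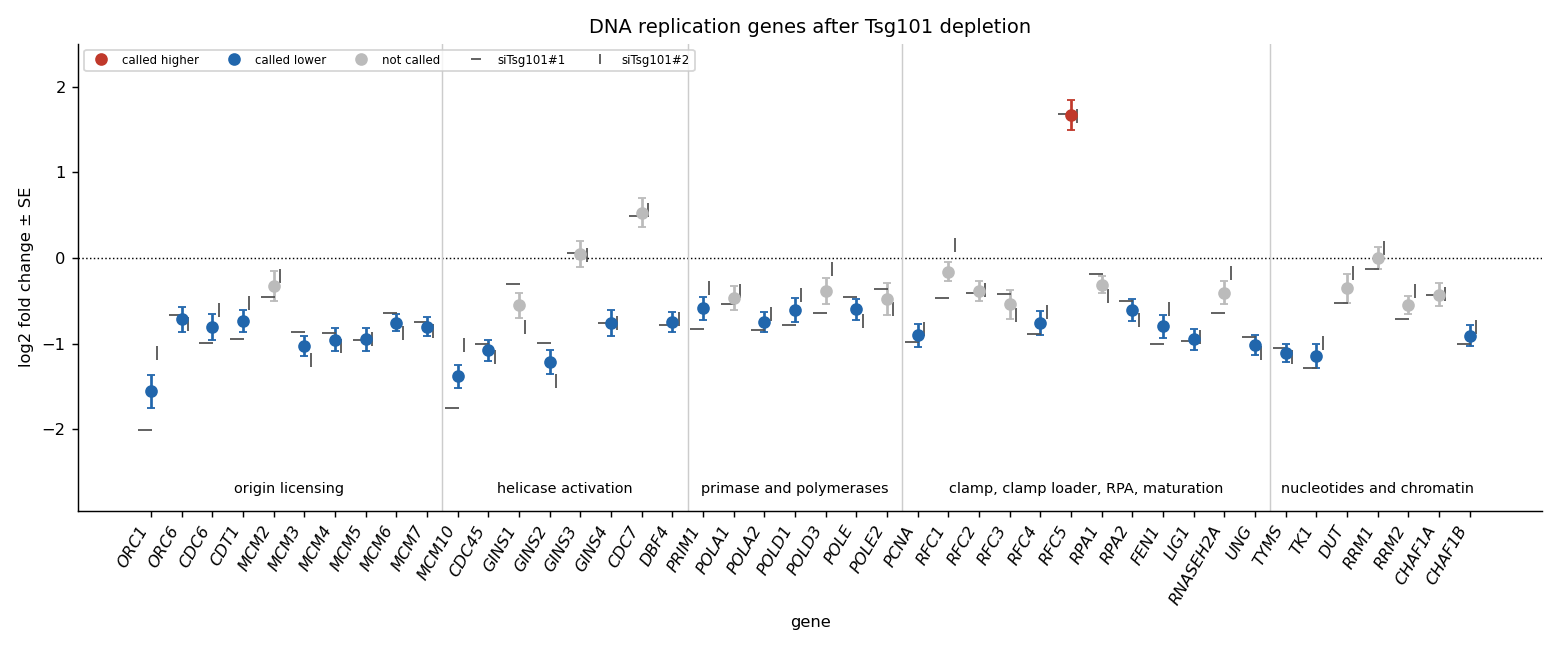
Log2 fold change (point) with its standard error (bar) for 44 of the 45 tested DNA replication genes, grouped by step, with a horizontal mark for siTsg101#1 and a vertical mark for siTsg101#2. Of the points 27 are called lower, from ORC1 at -1.56 upward, and RFC5 at 1.67 is the only one called higher.

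Genes of mitosis and cytokinesis were also lower, 19 of 39 and none higher, with a median of -0.51. The median was -0.61 with siTsg101#1 and -0.34 with siTsg101#2, and 7 were called lower with each siRNA. ANLN, which organizes the contractile ring, was at 183, 222 and 239 CPM in the controls and 75.8, 82.2 and 128 CPM after depletion (-1.24, SE 0.11, adjusted p = 4.6e-08, edgeR). RACGAP1, a subunit of the centralspindlin complex at the cell midzone, fell from a median of 45.1 to 23.1 CPM (-1.01, SE 0.12). TPX2, a spindle assembly factor, fell from 282 to 153 CPM (-1.04, SE 0.11), and CCNA2, cyclin A, from 89.3 to 47.5 CPM (-1.15, SE 0.12). Both fell more with siTsg101#1, with log2 differences (siTsg101#1 minus siTsg101#2) of -1.22 for TPX2 and -1.49 for CCNA2. Among regulators of G1 and S phase 5 of 27 fell and 4 rose (median -0.11). SKP2, which marks CDK inhibitors for degradation, fell from 79.5 to 30.8 CPM (-1.35, SE 0.13), CDK2 from 167 to 97.5 CPM (-0.78, SE 0.12), E2F1 from 120 to 59.0 CPM (-0.97, SE 0.13) and CCND1, cyclin D1, from 273 to 152 CPM (-0.72, SE 0.11). E2F2 (1.60, SE 0.23), CCNE1, cyclin E (0.82, SE 0.12), and CDKN1C, a CDK inhibitor (0.77, SE 0.15), rose. CDKN1A, the inhibitor p21, had a log2 fold change of 0.48 and was not called. The share of cells in each phase of the cycle was not measured in these libraries.

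E2F factors drive replication genes from sites close to the transcript start. TTTNGCGC, on either strand, stood in the windows of 3.72% of all tested genes with a window, of 6.98% of those called lower and of 3.29% of those called higher. Of the 91 replication and cell cycle list members with a window 20 held it (22.0%), and of the 40 called lower 9 held it (22.5%), a share close to that of the lists. The 9 were MCM3, E2F1, CDC6, MCM7, MCM6, POLA2, CDT1, ORC6 and POLE. MCM6 had 4 overlapping matches in a pair of sites and is shown with E2F1 and POLA2, all on their gene strand in GRCh38.p14, with matches in capitals.
MCM6 (chr2:135876492-135876625, minus): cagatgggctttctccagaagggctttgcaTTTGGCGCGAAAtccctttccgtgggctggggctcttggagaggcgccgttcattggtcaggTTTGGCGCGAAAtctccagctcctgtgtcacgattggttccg
E2F1 (chr20:33686386-33686435, minus): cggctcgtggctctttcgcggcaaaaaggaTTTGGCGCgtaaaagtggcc
POLA2 (chr11:65261879-65261946, plus): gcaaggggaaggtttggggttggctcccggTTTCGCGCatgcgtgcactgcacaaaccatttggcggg

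TSG101 led the decreases among genes called with both siRNAs. COMMD7, of a family that binds NFκB and endosomal coats, was at 12.7, 18.4 and 23.0 CPM in the controls and 2.12, 3.83 and 4.67 CPM after depletion (-2.25, SE 0.18, adjusted p = 1.9e-08, edgeR). An unnamed gene on the same strand overlaps 29.4% of the exon bases of COMMD7. NXPH4, a neurexophilin, fell from a median of 29.3 to 6.91 CPM (-2.14, SE 0.16), and SHANK1, a scaffold known from synapses, from 477 to 126 CPM (-1.78, SE 0.12). VASP, an actin regulator, fell from 193 to 67.5 CPM (-1.48, SE 0.12), MARCKSL1, another actin-binding protein, from 43.6 to 14.6 CPM (-1.59, SE 0.14), and SMAD9, a BMP signal transducer, from 7.69 to 2.65 CPM (-1.55, SE 0.21). SAC3D1 (-1.86), NRM, a nuclear envelope protein (-1.81), PSMC3IP (-1.64), C1QTNF1 (-1.46) and IFI27L2 (-1.38) also belonged to them, with MCM10 and OIP5. OIP5 (-1.40) is uncertain, as 92.5% of its exon bases overlap genes on the other strand, among them OIP5-AS1.

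Receptors whose sorting depends on ESCRT moved in both directions at the level of RNA. Of 17 tested 5 were called higher and 1 lower, with a median of 0.09. MET, the HGF receptor, was at 26.9, 60.5 and 102 CPM in the controls and 155, 165 and 195 CPM after depletion (1.61, SE 0.12, adjusted p = 7.0e-09, edgeR). Its change was 2.31 against siCtrl#1 and 0.90 against siCtrl#2. TNFRSF1A, the main TNF receptor, rose from a median of 87.0 to 136 CPM (0.70, SE 0.11), and EPHA2, an ephrin receptor, fell from 441 to 212 CPM (-1.11, SE 0.11). EGFR had a log2 fold change of 1.07 with siTsg101#1 and 0.13 with siTsg101#2. Of 12 tested feedback genes and ligands of ERK signaling 3 were higher and none lower (median 0.28). None of the 3 was called with each siRNA, and TGFA, a ligand of EGFR (0.95, SE 0.36), lost its call without any 1 of 10 of the 12 libraries. DUSP6, a phosphatase of ERK, was likewise at 1.44 with siTsg101#1 and 0.25 with siTsg101#2. Endosomal Rab genes and effectors, with sorting nexins and retromer subunits, gave 4 higher (17.4%) and none lower of 23 (median 0.18). Of all tested genes 10.7% were called higher. EEA1, a tether of early endosomes, was at 0.82 (SE 0.19).

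Calls in other stress programs are read beside the 10.7% of all tested genes called higher and 6.42% called lower. Of 25 tested p53 targets 6 (24.0%) rose and 1 (4.00%) fell (median 0.14), with TIGAR, a regulator of glycolysis, at 1.51 (SE 0.15) and DDB2, a DNA repair factor, at -0.79 (SE 0.13). Of 29 tested ATF4 and amino acid response genes 3 (10.3%) rose and 3 fell (median -0.08). CEBPB was 1 of the 3 that rose, and PHGDH (-0.85, SE 0.12), the first enzyme of serine synthesis, PSPH (-0.72, SE 0.20), the last, and NARS1 (-0.74, SE 0.10), a tRNA synthetase, fell. PSPH was -0.46 and not called without siCtrl#1 replicate 3. Of 21 tested genes of the unfolded protein response 4 (19.0%) rose and 1 fell (median 0.14), with PDIA4 (1.59, SE 0.16) and DNAJB9 (1.14, SE 0.13), both of protein folding in the endoplasmic reticulum, the largest, and HSPA5, its main chaperone, at -0.34 without a call. Among 17 tested genes of the BCL2 family with XIAP, MCL1 rose from a median of 589 to 932 CPM (0.72, SE 0.11) and XIAP was at 0.62 (SE 0.12), which fell short of the threshold at 0.51 to 0.58 without siCtrl#1 replicate 1, siCtrl#2 replicate 1 or siTsg101#2 replicate 1. None of the 17 was called lower.

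Among the genes with the most reads in the libraries, the 5 called higher were FTL, SQSTM1, RPL8, TM4SF1 and S100A11. RPL8, a ribosomal protein, was at 532 to 985 CPM in the controls and 1922 to 2322 CPM after depletion (1.60, SE 0.13, adjusted p = 2.0e-08, edgeR). TM4SF1, a surface protein of epithelial tumors, rose from a median of 676 to 1262 CPM (1.25, SE 0.14), and S100A11, a calcium-binding protein, was 0.70 (SE 0.14), or 0.56 and not called without siTsg101#1 replicate 1. Those called lower were 4 histone genes and EWSR1, an RNA-binding protein that went from a median of 1091 to 622 CPM (-0.79, SE 0.10). The histones H3C2 (-1.01, SE 0.16), H2BC5 (-0.83, SE 0.12), H2AC11 (-0.71, SE 0.13) and H2BC21 (-0.71, SE 0.12) share sequence with other members of their families, and H2BC21 was -0.57 and not called without siCtrl#2 replicate 1.

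The siTsg101 siRNAs differed in the size of many changes. Tested against each other, 422 genes were higher with siTsg101#1 and 494 with siTsg101#2 at 1.5-fold, and 262 of the genes called against siCtrl were among them. For TSG101 itself the difference was 0.25 (SE 0.42) and was not called. CXCL8 was at a log2 fold change of 7.55 with siTsg101#1 and 5.94 with siTsg101#2, and NFKBIA at 3.38 and 2.44. The cholesterol enzymes had medians of 1.32 and 1.16 and the replication genes of -0.76 and -0.66. Median depth in reads on genes also differed, at 3786891 for siTsg101#1 and 6246663 for siTsg101#2, and its part in these differences was not tested.

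**Figure D5:**
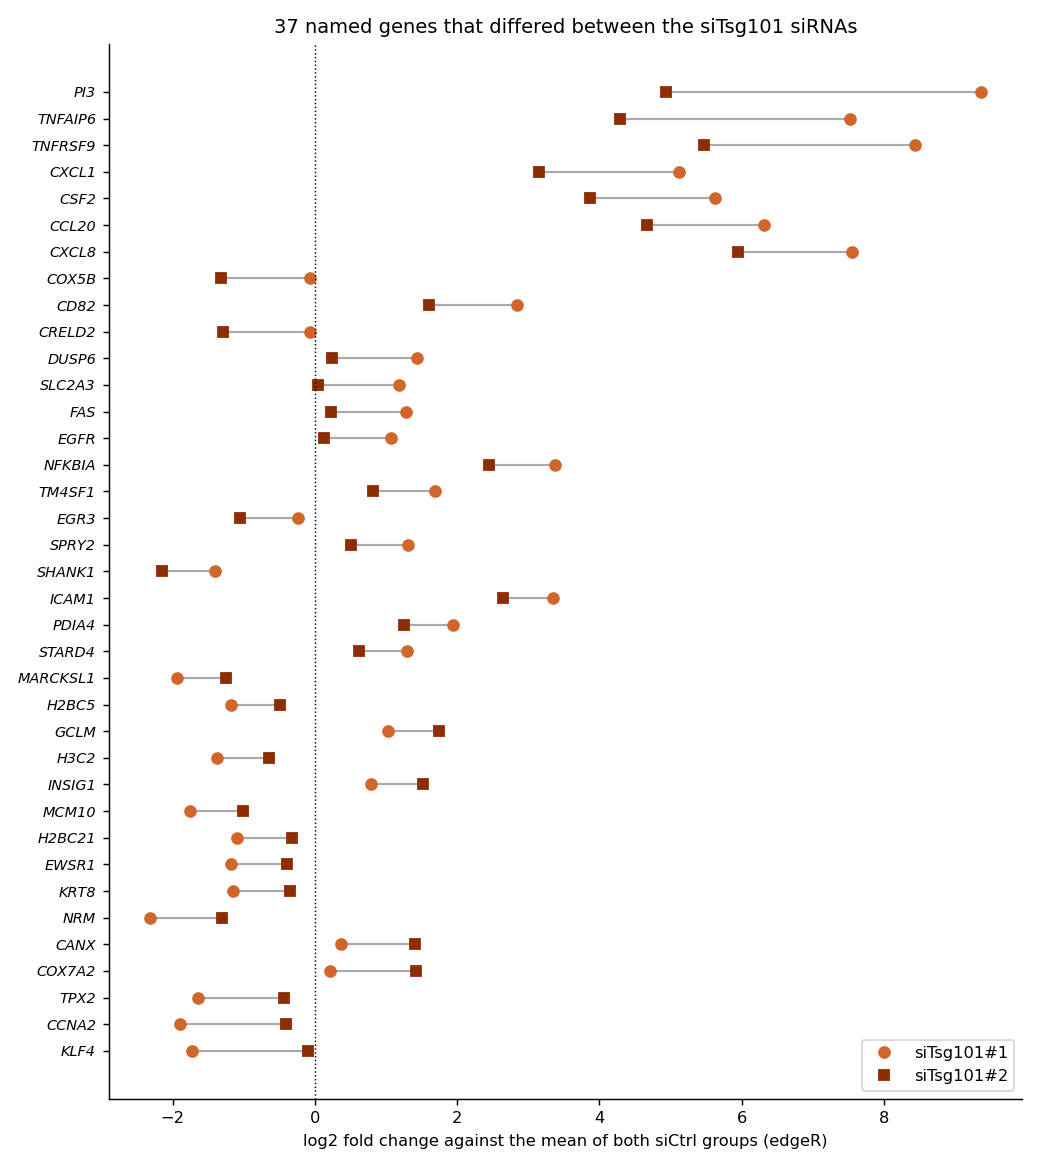
Log2 fold change against the mean of both siCtrl groups with siTsg101#1 (circles) and siTsg101#2 (squares) for 37 named genes that differed between the siRNAs at 1.5-fold with an adjusted p-value under 0.05. In all 37 the values of both siRNAs have the same sign, and in 29 the circle lies farther from 0. All 37 were called on the mean of both siRNAs, which favors the same sign.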

How the data were processed

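RKO cells were profiled by amplicon sequencing of human transcripts (Ion AmpliSeq panel, Ion Proton). The authors mapped reads with TMAP against hg19 sequences of the amplified transcripts and deposited raw read counts per RefSeq target, made with HTSeq 0.6.0, and tested them with DESeq2 1.18.1 (versions from the submitters' processing notes). The strand setting and the amplicon positions are not given in the sources used here. Of the reads, 45.4 to 46.2% fell on genes and 48.2 to 49.1% were tallied as no feature, which stayed out of library sizes.

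Of 20802 targets 574 matched no gene name. Targets with more than 100 counts over the 18 libraries were kept, and 419 noncoding ones were left out. The 12 libraries were fitted with edgeR 4.0.16 (quasi-likelihood test, TMM, 4 siRNA means and the batch as a block, R 4.3.3), with Benjamini-Hochberg adjustment over the 10213 tested targets, and calls required 1.5-fold and an adjusted p-value under 0.05. The batch number comes from the sample titles. Deviations from the group means had a mean correlation of 0.13 over 18 same-number pairs, from -0.0998 to 0.389. It was -0.067 over 36 other pairs. Deviations within a group cancel, so the value for the other pairs largely follows from the first and is no separate comparison. Multidimensional scaling used limma 3.58.1. Counts of replicate pairs differed by more than sampling noise.

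The comparison and the gene lists were chosen with earlier results of these data known. Named genes are the ESCRT-I subunits, the 15 largest called changes each way seen with both siRNAs and without overlap between groups, the 5 called genes each way with the most reads, up to 4 called members a list and direction by smallest p-value (all where 5 or fewer were called), and cell type markers. Other list members named in the text were chosen after their values were seen. Gene overlaps were read from the reference annotation and stretches of 31 bases shared between transcripts were counted as shared. In 10 of the 170 named genes, genes on the other strand overlapped more than 25% of the exon bases. Beside those given with their share in the text, these were PSMC3IP, DUSP6, HLA-F and FAS. Alternatives were the block, DESeq2 1.42.0, RLE factors, filters, thresholds, references and leaving out libraries or batches. A few results are not reported here.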

Additional observations from a re-analysis of the deposited data

Results flagged for a closer look

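For 38 of the 161 called genes named by the rule, siTsg101#1 and siTsg101#2 differed from each other beyond 1.5-fold, with a p-value under 0.05 after adjustment, in the edgeR fit. The values, given for 37 of them, are log2 differences, siTsg101#1 minus siTsg101#2. Both siRNAs gave the same sign against siCtrl in all 38, and siTsg101#1 lay farther from 0 in 30 of them. The 38 were called on the mean of both siRNAs, and some by rule with each, which favors the same sign.

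Among genes of inflammation the difference was 4.43 for PI3, 3.24 for TNFAIP6, 2.97 for TNFRSF9, 1.96 for CXCL1, 1.76 for CSF2, 1.65 for CCL20 and 1.61 for CXCL8. It was 1.24 for CD82, 0.93 for NFKBIA and 0.70 for ICAM1. All of these rose more with siTsg101#1. In the receptor and ERK group EGFR differed by 0.94, DUSP6 by 1.19 and SPRY2 by 0.80, and among early response factors EGR3 by 0.82 and KLF4 by -1.62.

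Among genes of the cell cycle CCNA2 differed by -1.49, TPX2 by -1.22 and MCM10 by -0.73, each lower with siTsg101#1. The histones H2BC21, H3C2 and H2BC5 differed by -0.77, -0.72 and -0.70. Of the largest decreases NRM differed by -1.0, MARCKSL1 by -0.69 and SHANK1 by 0.74, and EWSR1 by -0.78. In the sterol group STARD4 differed by 0.67 and INSIG1 by -0.73, and in the antioxidant group GCLM by -0.72. The remaining genes were FAS (1.05), PDIA4 (0.69), CANX (-1.05), CRELD2 (1.23), SLC2A3 (1.14), COX5B (1.25), COX7A2 (-1.22), TM4SF1 (0.88) and KRT8 (-0.80).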

How the results depend on the processing

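Genes with few control reads are limited by depth. Counts of calls depended on the thresholds. With the adjusted p-value alone 1845 genes were called higher, 1645 lower and 544 lower with each siRNA, and at 2-fold 455 were higher, 117 lower, 310 higher with each siRNA and 38 lower with each. Without the replicate block 1061 were called higher and 643 lower, and 1050 and 631 of these had been called with it, and of the named genes only CCN2 and NDUFS6 lost their call. Of the 161 called named genes no sign turned in any alternative, and 139 to 161 kept their call where all were tested. With over 100 counts required in the 12 libraries, 153 were tested and all kept it. With at least 10 counts required in each library, 127 of 127 kept it. The requirement of 10 counts left 292 higher and 94 lower calls untested. The cytokine median moved from 2.33 to 1.04 under it and to 1.43 with over 100 counts in the 12 libraries. Both filters left out members with few control reads and large ratios, among them CXCL1 (20.1) and CCL20 (66.8). The cholesterol median was 1.13 with siCtrl#2 as reference and between 1.13 (without siCtrl#2 replicate 1) and 1.37 without 1 library, and the mitosis median was -0.34 with siTsg101#2 alone, and the cause was not tested. The count of named genes differing between siRNAs fell from 38 to 16 without batch 3, and lay between 21 and 42 without 1 library, lowest without siTsg101#2 replicate 3.

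Signs turned in genes that were not called, with main values between 0.06 and 0.35. With siCtrl#1 as reference VPS28 was -0.12, VPS37C -0.061 and UBAP1 -0.046, and with siCtrl#2 VPS37B was -0.063 and EPCAM -0.17. Without batch 2 VPS37B was -0.024 and UBAP1 -0.026, and without batch 3 VPS28 was -0.016 and UBAP1 -0.050. Leaving out 1 library moved MVB12B between -0.0030 and 0.22 and UBAP1 between -0.021 and 0.19.

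Without 1 library 2 to 9 named genes fell short of a call, 25 in all. Beside those given with their values elsewhere in the text, these were the following. Without siCtrl#1 replicate 1 they were FADS2 (-0.56), SESN2 (0.48), FGFR4 (0.53), EGFR (0.49), TGFA (0.91), SLC2A3 (0.58) and NDUFS6 (-0.53), and without siCtrl#2 replicate 1 ACSL3 (0.57), RBL2 (0.57), NDUFS6 (-0.53) and COX5B (-0.54). Without siTsg101#1 replicate 1 they were RBL2 (0.58), FGFR4 (0.58), EGFR (0.48), TGFA (0.96), RAB5B (0.58) and NDUFS6 (-0.43), and without siTsg101#2 replicate 1 FADS2 (-0.54), FGFR4 (0.58), SLC2A3 (0.57) and COX7A2 (0.80). Without siCtrl#1 replicate 2 they were EGR3 (-0.56), CRELD2 (-0.58), TGFA (0.98), NDUFS6 (-0.53) and COX5B (-0.53), and without siCtrl#2 replicate 2 KLF4 (-0.77), TGFA (0.82) and NDUFS6 (-0.58). Without siTsg101#1 replicate 2 they were KLF4 (-0.86), FADS2 (-0.57) and TGFA (1.00), and without siTsg101#2 replicate 2 KLF4 (-0.85), CRELD2 (-0.55), TGFA (0.83), NDUFS6 (-0.44) and COX5B (-0.53). Without siCtrl#1 replicate 3 they were KLF4 (-0.51), EGFR (0.55), TGFA (0.98) and COX7A2 (0.67), and without siCtrl#2 replicate 3 TGFA (0.81) and COX7A2 (0.60). Without siTsg101#1 replicate 3 they were TGFA (0.86) and COX7A2 (0.59), and without siTsg101#2 replicate 3 EGR3 (-0.57), KLF4 (-0.73), RBL2 (0.58), EGFR (0.57), TGFA (0.94) and COX7A2 (0.74).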

Other observations

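Ribosomal protein genes did not move as a group, with 6 of 72 called higher, none lower and a median log2 fold change of -0.05, yet single members rose far. RPL35A, of the large subunit, was at 5.05 to 13 CPM in the siCtrl libraries and 32.8 to 59.8 CPM in the siTsg101 libraries (2.4, SE 0.18, adjusted p = 7.0e-09, edgeR). RPL31 (2.00), RPL39 (1.11), RPS7 (0.99) and RPL24 (0.76) also rose beside RPL8. Of 73 respiratory chain subunits 1 rose and 3 fell (median -0.12), with COX6A1, of complex IV, at -0.70.

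Class I antigen presentation genes gave 3 higher (21.4%, beside 10.7% of all tested genes) and none lower among 14 (median 0.19). The 3 were HLA-F (1.48), TAPBP (1.23), a loading factor, and PSMB8 (1.15), of the immunoproteasome. TAPBP was 1.01 and not called without siCtrl#1 replicate 3. Of 18 interferon-stimulated genes 1, IFI44, was called (2.25, SE 0.66), which was 1.80 and not called without siTsg101#1 replicate 1. Genes of hypoxia and glycolysis gave 4 higher (12.9%) and 1 lower (3.23%) among 31 (median 0.10), near the 10.7% and 6.42% of all tested genes. PDK1, a kinase that restrains pyruvate oxidation, was at 1.36 and ADM, adrenomedullin, at -0.67. Of 13 cytosolic heat shock genes DNAJB4 alone was called (0.86). The 11 tested Notch genes had values from -0.83 to 0.75. Of 10 YAP targets and matrix genes CCN2 was called lower (-0.65), but it was -0.51 without siCtrl#1 replicate 2 and -0.53 without siTsg101#1 replicate 2, and not called.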
